A study of Sus scrofa with 8 samples.

Results

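Solute carriers are membrane proteins that move amino acids, sugars, nucleotides, metals, vitamins and ions across cell and organelle membranes, and their genes carry symbols made of SLC, a family number, a letter and a member number. The genes described here are those of the pig backfat arrays whose probe sets had 1 annotated gene symbol that starts with SLC followed by a digit. The glucose carriers SLC2A1, SLC2A3 and SLC2A4, the carnitine-acylcarnitine carrier SLC25A20 and the fatty acid transport family SLC27A were left out, which removed 6 measured genes. The rule gave 114 genes of 6765 named genes on the array, in 36 families and on 166 probe sets, and each gene was represented by its probe set of highest mean. By their symbols 3 of the 114 are not carriers: SLC2A4RG is a transcription regulator named after a glucose carrier gene, and SLC9A3R1 and SLC9A3R2 are scaffold proteins named after a proton exchanger.

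Backfat RNA was taken from 2 pig breeds, KNP at 7 months of age and YS at 6 months, with 4 samples of each. YS is named as Yorkshire in 1 label, and the labels do not spell out KNP. The fat came from the middle of the back of pigs that were kept alike, and each sample was read on 1 Affymetrix GeneChip Porcine Genome Array. Breed and age cannot be told apart, the sex of the pigs is not stated, and the labels do not say whether the 4 samples of a breed were 4 animals, so the errors and p-values below measure the spread between samples. Levels are log2(signal + 16), differences are KNP minus YS on that scale (1 unit is 2-fold), and errors are SD over 4 arrays for a level and the standard error of the limma fit for a difference.

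Fat cells depend on carriers at several points of their metabolism. The mitochondrial citrate carrier SLC25A1 exports the citrate from which fatty acids are built in the cytosol, the ADP/ATP carriers SLC25A4, SLC25A5 and SLC25A6 hand ATP from mitochondria to the cell, and plasma membrane carriers take up sugars and amino acids and release lactate. Other families serve every cell, among them the SLC35 carriers that bring nucleotide sugars into the Golgi apparatus and the SLC30 and SLC39 families that move zinc.

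The arrays did not resemble each other equally. On KNP 1, KNP 2 and YS 4 the 3′ probe sets of 3 control genes exceeded the 5′ ones by 8.54, 5.88 and 4.40 log2 units, against 2.12 to 3.17 on the other 5 arrays, and a wide gap of this kind is a usual sign of degraded RNA. All 7 measured adipocyte markers of 10 listed lay above background on all 8 arrays, but they did not order the arrays alike. ADIPOQ, the hormone adiponectin, read 7.43, 8.80 and 9.18 on these 3 arrays and 11.18 to 12.42 on the others, and LIPE and PPARG were also lowest there. FABP4 and LEP, in contrast, were highest of all on KNP 1, at 15.78 and 12.33. Skeletal muscle markers stood out on KNP 2, where the summed signal of 16 measured genes of 22 listed was 86118, against 608 to 1818 on the other 7 arrays. All differences were therefore computed without these 3 arrays as well.

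Most of the SLC genes lay above background on all 8 arrays, but a smaller share than of all named genes. No detection calls were used. Background was read instead from 23 control probe sets with nothing to bind in pig RNA, whose 95th percentile, called the no-target level here, lay between 5.82 on YS 2 and 7.47 on YS 4. Of the 114 genes, 64 (56.1%) exceeded this level on all 8 arrays, against 66.8% of all 6765 named genes. A further 43 exceeded it on 1 to 7 arrays and 7 on no array, where the share over all named genes was 3%. Single arrays showed between 81 genes above it, on KNP 2, and 98, on YS 2.

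**Figure D1:**
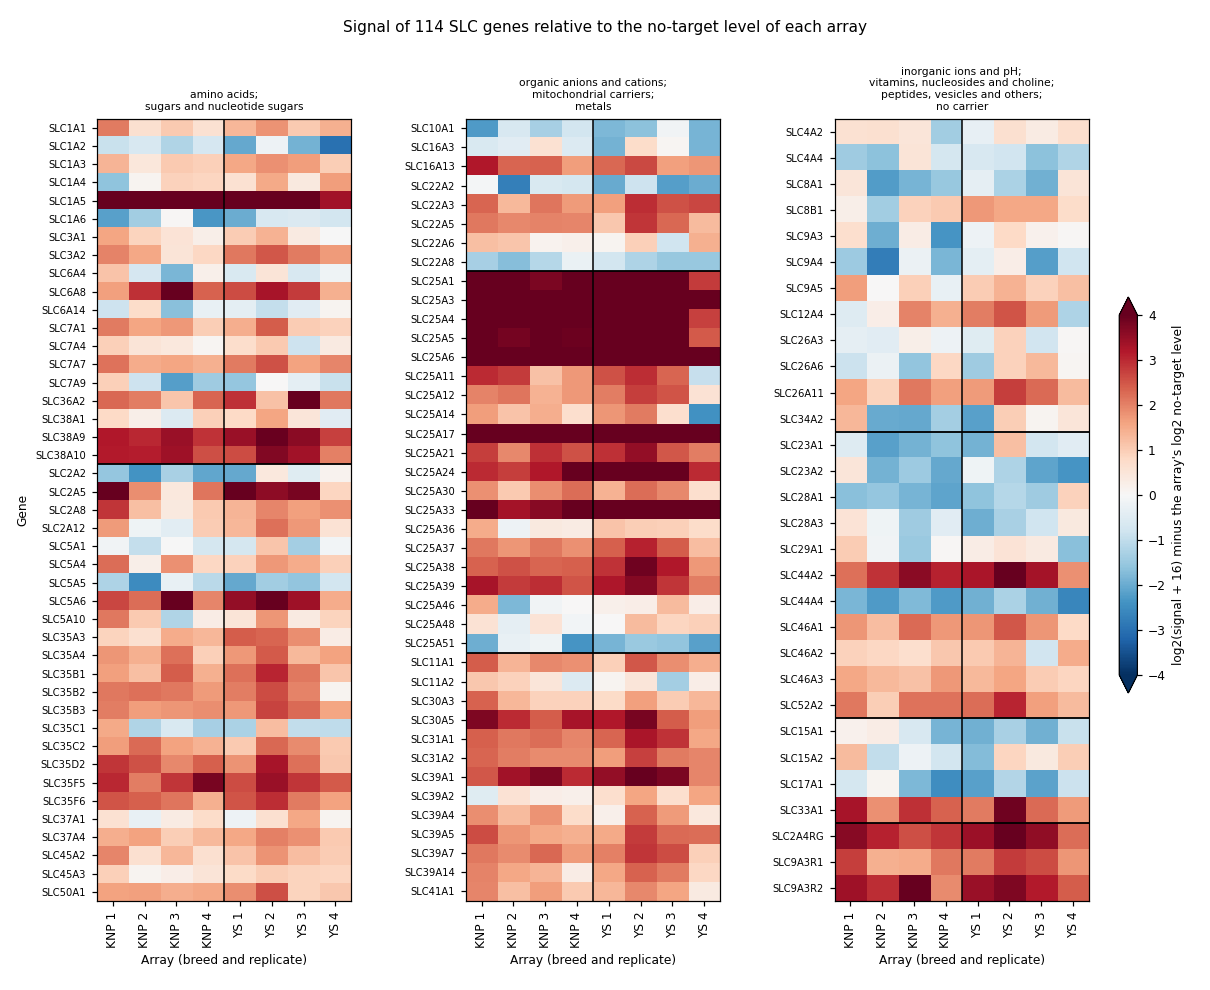
Heat map of the SLC genes on the 8 backfat arrays: rows are genes grouped by role, columns are arrays, and the colour is the log2 level minus the no-target level of that array, capped at 4 units either way. The mitochondrial carriers and the metal carriers hold many rows above the no-target level on all arrays, and the inorganic ion carriers hold 1.

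The 7 genes above the no-target level on no array were SLC10A1, SLC1A2, SLC22A2, SLC22A8, SLC25A51, SLC44A4 and SLC5A5. Several are known for other organs: SLC10A1 takes up bile acids in liver cells, SLC22A2 and SLC22A8 carry organic ions in the kidney, SLC5A5 brings iodide into the thyroid, and SLC1A2 clears glutamate in the brain. Within the SLC22 family, SLC22A3 and SLC22A5 exceeded the no-target level on 8 arrays. Members that went the other way were SLC22A6, above it on 7 arrays, and SLC9A3, of kidney and gut, on 5. These examples therefore do not show that the level separates carriers of fat from those of other organs. SLC10A1 read 4.18 to 6.40 over the 8 arrays. The intestinal glucose carrier SLC5A1 exceeded the no-target level on 1 array and read 5.07 to 7.36. A nucleoside carrier, SLC28A1, read 8.40 on YS 4 and at most 5.49 on the other 7 arrays, so that it was above the no-target level on YS 4 alone. In all, 20 of the 114 genes fell below the filter on low values, which leaves out the 25% of probe sets with the lowest mean, and 94 were tested.

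Among the carrier roles, the largest share detected was that of metal carriers, with 11 of 13 genes above the no-target level on all 8 arrays, followed by sugar and nucleotide sugar carriers with 17 of 24 and mitochondrial carriers with 14 of 20. Amino acid carriers had 10 of 19, carriers of vitamins, nucleosides and choline 4 of 11, and carriers of organic anions and cations 3 of 8. Carriers of inorganic ions and of acid and base had 1 of 12, SLC26A11, a sulfate and chloride carrier. These shares describe the probe sets as well as the tissue, since a probe set that binds poorly can read low where its RNA is present.

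No SLC gene differed between the breeds beyond the spread of the samples. In limma fitted over 17999 probe sets, 0 of 94 genes had an adjusted p under 0.05 (Benjamini-Hochberg), as did 0% of all probe sets, and 0 had an unadjusted p under 0.05, against 2.84% of all probe sets. In 0 of the 94 genes did the 4 KNP values lie wholly above or below the 4 YS values, against 1.96% of all probe sets, and 0 breed means were at least 2-fold apart, against 3.67%. The smallest unadjusted p was 0.0619, for SLC8B1, and the smallest adjusted p was 0.9998.

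The differences were spread evenly around 0. Of the 94 genes, 47 had the higher mean in KNP and 47 in YS, with a median difference of -0.002, while 3112 of 6006 named genes had the higher mean in KNP, with a median of 0.01. The median size of a difference was 0.27 against a median standard error of 0.37, and for 64 of the 94 genes the difference was smaller than its own standard error. In bulk tissue, fewer cells of a type and less RNA per cell cannot be told apart, and none of these values separates them.

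What sizes of difference the arrays leave possible can be read from the 95% intervals. All 94 contained 0, and for 36 genes (38.3%, against 41.1% of all probe sets) the interval lay within 2-fold in either direction. For the other 58 genes a 2-fold difference lay inside the interval. The distance from the difference to the end of its interval was 0.48 log2 units for the best measured gene, 0.83 in the median and 2.47 for the worst, so that for most carriers an equal level in both breeds was not shown either.

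**Figure D2:**
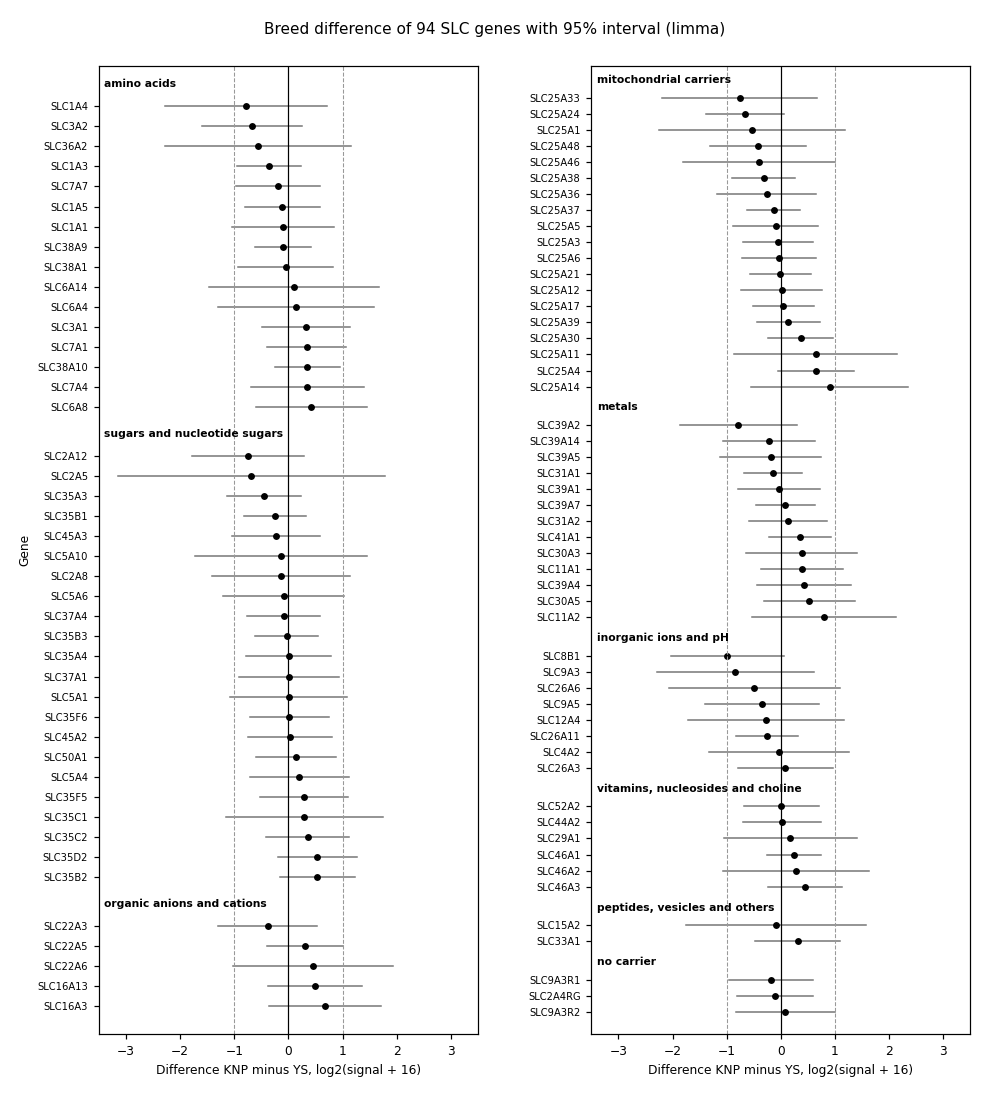
Differences KNP minus YS in log2 level for the 94 tested SLC genes, grouped by role: points are limma estimates over 4 arrays per breed bars are 95% intervals, and dashed lines mark 2-fold. All 94 bars cross 0, and 58 reach 2-fold in at least 1 direction.

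Mitochondrial carriers of the SLC25 family held the smallest p-values after SLC8B1. SLC25A4, the ADP/ATP carrier form that is abundant in heart and skeletal muscle, read 11.54, 11.46, 11.92 and 11.22 in KNP and 11.37, 11.11, 10.86 and 10.21 in YS. The mean was 11.54 ± 0.29 against 10.89 ± 0.50, a difference of 0.65 ± 0.31 (95% interval -0.05 to 1.35, unadjusted p = 0.0654), and the breeds overlapped through KNP 4 and YS 1. The difference was 0.67 ± 0.35 without KNP 2, the array with muscle markers, 0.42 ± 0.27 without YS 4 and 0.46 ± 0.32 without KNP 1, KNP 2 and YS 4. The part of muscle RNA in the level of SLC25A4 was not tested.

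SLC25A24 exchanges ATP-magnesium for phosphate across the inner mitochondrial membrane. It read 9.72, 9.81, 9.74 and 10.78 in KNP and 10.60, 11.14, 10.50 and 10.46 in YS. Its mean was 10.01 ± 0.52 against 10.68 ± 0.31, a difference of -0.67 ± 0.32 (95% interval -1.38 to 0.05, unadjusted p = 0.0657). The overlap rested on KNP 4, which stood well above the other 3 KNP arrays and inside the YS range. Without KNP 1, KNP 2 and YS 4 the difference was -0.49 ± 0.40.

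The other ADP/ATP carriers and the phosphate carrier together supply ATP synthesis with its substrates. The probe sets used for them read high on every array. SLC25A5 read 10.71 to 10.99 in KNP and 9.93 to 11.35 in YS, a difference of -0.09 ± 0.35. SLC25A6 read 12.77 to 13.49 in KNP and 12.41 to 13.44 in YS, a difference of -0.03 ± 0.30. SLC25A3, the phosphate carrier, read 12.89 to 13.27 in KNP and 12.48 to 13.55 in YS, a difference of -0.05 ± 0.29. YS 4 was the lowest of the 8 arrays for all 4 of these genes, SLC25A4 included, and the 95% intervals of SLC25A5, SLC25A6 and SLC25A3 (-0.88 to 0.70, -0.72 to 0.65 and -0.70 to 0.60) lay within 2-fold. These small differences depended on YS 4: without it they were -0.43 ± 0.22, -0.26 ± 0.26 and -0.28 ± 0.24, and SLC25A5 and SLC25A3 then had no overlap between the breeds, as did 6.33% of all probe sets.

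The citrate carrier SLC25A1 varied far more between samples than between breeds. It read 12.45, 12.49, 10.30 and 11.53 in KNP and 13.89, 12.33, 12.40 and 10.28 in YS, a range of 3.62 log2 units. The means were 11.69 ± 1.03 and 12.23 ± 1.49, a difference of -0.53 ± 0.76 (95% interval -2.24 to 1.18, unadjusted p = 0.501). KNP 3 and YS 4 were nearly equal and lowest, and YS 1 was highest.

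The oxoglutarate-malate carrier SLC25A11 and the uncoupling-protein relative SLC25A14 were both lowest on YS 4. SLC25A11 read 9.72, 9.84, 7.70 and 8.49 in KNP and 9.11, 8.78, 8.75 and 6.55 in YS, a difference of 0.64 ± 0.66. SLC25A14 read 8.39, 8.17, 7.98 and 7.46 in KNP and 8.33, 7.89, 7.12 and 5.05 in YS, the largest positive difference of the 94 genes at 0.90 ± 0.64 (unadjusted p = 0.195). On YS 4 both genes lay under the no-target level of that array, 7.47. Without YS 4 alone the differences of SLC25A11 and SLC25A14 were 0.06 ± 0.53 and 0.22 ± 0.37. Without KNP 1, KNP 2 and YS 4 they turned to -0.78 ± 0.33 and -0.07 ± 0.42. Over the 19 tested SLC25 genes, 7 had the higher mean in KNP and 12 in YS, with a median difference of -0.05 and a range of -0.76 to 0.90.

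SLC25A33, a carrier of pyrimidine nucleotides, also had a wide spread and is named here after its values were seen. It read 11.71, 10.35, 10.18 and 11.79 in KNP and 13.00, 10.21, 12.37 and 11.48 in YS, a difference of -0.76 ± 0.64. At the narrow end, the probe set used for SLC25A37, which brings iron into mitochondria, spanned 0.35 log2 units over all 8 arrays, from 8.61 to 8.95, with a difference of -0.13 ± 0.21. A further probe set of SLC25A37 read 5.64 to 7.95 and exceeded the no-target level on 3 arrays.

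Among the amino acid carriers, SLC3A2 had the smallest p. It encodes the heavy chain that pairs with several SLC7 light chains and brings them to the cell surface. It read 8.70, 8.60, 7.05 and 7.59 in KNP and 8.68, 8.31, 8.51 and 9.17 in YS. The means were 7.99 ± 0.80 and 8.67 ± 0.37, a difference of -0.68 ± 0.41 (95% interval -1.61 to 0.24, unadjusted p = 0.131), with KNP 3 and KNP 4 below every YS array and KNP 1 and KNP 2 inside the YS range. SLC1A3, a glutamate and aspartate carrier, followed with 7.72 ± 0.26 in KNP and 8.07 ± 0.33 in YS, a difference of -0.36 ± 0.26.

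SLC1A5, the main glutamine carrier of the SLC1 family, read 10.86 to 11.65 in KNP and 10.82 to 11.71 in YS. Its means of 11.33 ± 0.39 and 11.44 ± 0.42 differed by -0.11 ± 0.31, with a 95% interval of -0.81 to 0.58. The lowest arrays of the breeds, KNP 4 and YS 4, were nearly equal. SLC36A2, a proton-coupled carrier of glycine and proline, had the widest range of the amino acid carriers detected on all arrays, at 4.01 log2 units, and is named here for that reason.

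SLC36A2 read 9.02, 9.09, 7.62 and 9.11 in KNP and 9.50, 7.00, 11.01 and 9.57 in YS, a difference of -0.56 ± 0.76. Both extremes were YS arrays, the lowest YS 2 and the highest YS 3, so the KNP values lay wholly inside the YS range. SLC6A8, which takes up creatine, showed the reverse: the YS arrays read 8.87 to 9.24 and the KNP arrays 8.36 to 10.64, a difference of 0.42 ± 0.45. Of the 16 tested genes of this role, 7 had the higher mean in KNP and 9 in YS, with a median difference of -0.08.

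Sugar and nucleotide sugar carriers had 12 genes with the higher mean in KNP and 10 in YS, with a median difference of 0.01. The smallest p-values belonged to a pair of Golgi carriers. SLC35B2, which imports the sulfate donor used on proteoglycans, read 8.83, 9.25, 8.62 and 8.46 in KNP and 8.60, 8.42, 8.43 and 7.58 in YS, a difference of 0.54 ± 0.31 (unadjusted p = 0.116). SLC35D2, a nucleotide sugar carrier, read 9.57, 9.57, 8.45 and 9.17 in KNP and 8.36, 9.11, 8.64 and 8.53 in YS, a difference of 0.53 ± 0.32 (unadjusted p = 0.134). The breeds overlapped in SLC35B2 only in that KNP 4 lay below YS 1, and in SLC35D2 only in that KNP 3 lay among the YS values. Without KNP 1, KNP 2 and YS 4 the differences were 0.06 ± 0.24 for SLC35B2 and 0.11 ± 0.36 for SLC35D2.

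SLC2A5, the fructose carrier, had the widest range of all SLC genes detected on every array, 5.36 log2 units, and is named for that reason. It read 12.29, 8.90, 6.93 and 8.91 in KNP and 11.79, 9.39, 10.25 and 8.34 in YS. The means of 9.26 ± 2.22 and 9.94 ± 1.46 differed by -0.68 ± 1.10 (95% interval -3.16 to 1.79, unadjusted p = 0.548), the widest interval of the 94 genes. The highest array of each breed was its array 1 and the lowest array of the 8 was KNP 3.

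SLC2A12, a further member of the glucose carrier family, read 8.41, 6.88, 6.10 and 7.79 in KNP and 7.89, 8.04, 8.17 and 8.05 in YS. Its YS arrays were close together (SD 0.12) and its KNP arrays were not (SD 1.02), and the difference was -0.75 ± 0.46. The KNP values lay both above and below the YS ones. SLC2A12 exceeded the no-target level on 6 arrays, and KNP 2 and KNP 3 lay below it. Without KNP 1 the difference was -1.12 ± 0.39, with no overlap between the breeds, as had 5.71% of all probe sets. SLC37A4, which carries glucose 6-phosphate into the endoplasmic reticulum, read 7.50 to 8.64 in KNP and 7.85 to 8.50 in YS, a difference of -0.08 ± 0.30.

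**Figure D3:**
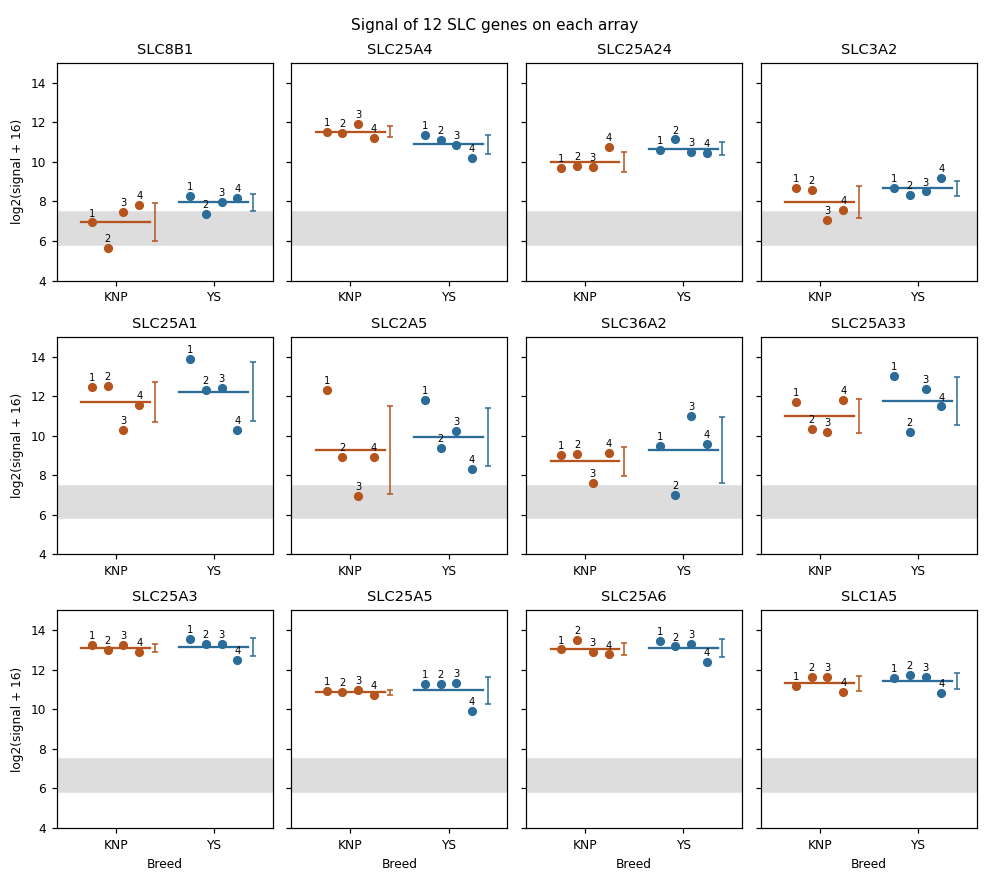
Log2 level of selected SLC genes on each array: points are the 4 KNP and 4 YS arrays, lines and bars are the mean and SD of a breed, and the gray band is the range of no-target levels over the arrays, 5.82 to 7.47. The breeds overlap in every panel, and SLC2A5 and SLC36A2 spread widest.

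Metal carriers had 8 genes with the higher mean in KNP and 5 in YS, with a median difference of 0.13 and a range of -0.78 to 0.80. SLC39A2, a zinc importer, had the smallest p, with 6.22, 7.63, 6.79 and 6.96 in KNP and 7.23, 7.39, 7.09 and 9.03 in YS, a difference of -0.78 ± 0.48 (unadjusted p = 0.138). YS 4 stood well above the other 7 arrays, and the remaining YS values lay inside the KNP range. Without YS 4 the difference was -0.33 ± 0.35. SLC41A1, a magnesium carrier, read 8.22 ± 0.35 in KNP and 7.87 ± 0.11 in YS, a difference of 0.36 ± 0.25 (unadjusted p = 0.191).

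SLC11A2 carries ferrous iron and read 7.79, 7.96, 7.02 and 6.21 in KNP and 6.66, 6.31, 5.07 and 7.74 in YS, a difference of 0.80 ± 0.59. It exceeded the no-target level on 6 arrays, and a further probe set of the same gene gave a difference of the other sign, -0.75 ± 0.41. SLC39A14, which carries zinc and iron, read 8.06 ± 0.75 in KNP and 8.28 ± 0.18 in YS, a difference of -0.22 ± 0.37.

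SLC11A1 removes metal ions from the phagosomes of macrophages. It read 9.15, 8.41, 8.45 and 8.60 in KNP and 7.51, 8.32, 8.30 and 8.92 in YS, a difference of 0.39 ± 0.34 (95% interval -0.38 to 1.16). Only YS 4 among the YS arrays lay inside the KNP range, and the other 3 lay below it. The macrophage markers had their median on the other side of 0, at -0.53, but did not all go that way. Of 12 listed genes 7 were measured, 5 of them above the no-target level on all arrays. Of the 7, 2 had the higher mean in KNP (CD14 by 0.51, AIF1 by 0.18) and 5 in YS. The smallest unadjusted p in limma was 0.0824, for MRC1. The summed signal of the markers was 3507 to 6704 in KNP and 4718 to 12518 in YS. Their part in the level of SLC11A1 was not tested.

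Carriers of inorganic ions and of acid and base had 1 gene with the higher mean in KNP and 7 in YS, with a median difference of -0.31, and most of them read near background. SLC8B1, which exchanges sodium for calcium across the inner mitochondrial membrane, had the largest difference of the 94 genes. It read 6.94, 5.66, 7.46 and 7.82 in KNP and 8.30, 7.37, 7.97 and 8.19 in YS. The means were 6.97 ± 0.94 and 7.96 ± 0.41, a difference of -0.99 ± 0.46 (95% interval -2.04 to 0.06, unadjusted p = 0.0619).

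For SLC8B1 3 of 4 YS arrays lay above every KNP array, and YS 2 lay below KNP 3 and KNP 4. KNP 2 was the lowest array and the only one under the no-target level. Without KNP 2 the difference was -0.55 ± 0.34, and without KNP 1, KNP 2 and YS 4 it was -0.24 ± 0.35. SLC9A3, a sodium-proton exchanger of kidney and gut, followed with 5.93 ± 1.42 in KNP and 6.78 ± 0.52 in YS, a difference of -0.84 ± 0.64, and exceeded the no-target level on 5 arrays.

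Carriers of vitamins, nucleosides and choline had all 6 tested genes with the higher mean in KNP, with differences of 0.01 to 0.45 and a median of 0.21, but the signs were not all stable. SLC29A1 turned from 0.18 ± 0.54 to -0.74 ± 0.55 without KNP 1, KNP 2 and YS 4, and leaving out 1 array took SLC46A2 as low as -0.27, SLC52A2 to -0.17 and SLC44A2 to -0.12. SLC46A3, a lysosomal carrier, read 8.26, 8.34, 7.71 and 8.51 in KNP and 7.86, 7.41, 7.44 and 8.32 in YS, a difference of 0.45 ± 0.30 (unadjusted p = 0.173). SLC46A1, the proton-coupled folate carrier, read 8.28 to 8.80 in KNP and 8.20 to 8.33 in YS, a difference of 0.24 ± 0.22. In both genes the ranges of the breeds overlapped, and with 6 genes and 0 past the test the count of signs is given as a description. SLC29A1, a nucleoside carrier, exceeded the no-target level on 5 arrays and read 5.03 to 7.73 in KNP and 5.79 to 6.85 in YS.

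Among carriers of organic anions and cations, 4 of 5 tested genes had the higher mean in KNP, with a median difference of 0.45. SLC16A3, which exports lactate from glycolytic cells, read 6.11, 6.58, 7.14 and 6.22 in KNP and 4.67, 6.54, 6.53 and 5.60 in YS, a difference of 0.68 ± 0.46 (unadjusted p = 0.172), and was above the no-target level on only 3 arrays. SLC16A13, of the same monocarboxylate family, read 9.91, 9.37, 8.88 and 8.45 in KNP and 8.87, 8.47, 8.09 and 9.24 in YS, a difference of 0.49 ± 0.38. SLC22A5, the carnitine importer, read 8.51 to 8.96 in KNP and 8.69 to 8.74 on 3 YS arrays, with YS 1 at 7.63, a difference of 0.31 ± 0.31. Without YS 1 the difference was 0.04 ± 0.26.

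The remaining carriers were few. SLC33A1, which brings acetyl-CoA into the endoplasmic reticulum, read 9.36 ± 0.50 in KNP and 9.05 ± 0.49 in YS, a difference of 0.31 ± 0.35. SLC15A2, a carrier of small peptides, exceeded the no-target level on 4 arrays and gave a difference of -0.09 ± 0.73. The 3 genes that encode no carrier lay above the no-target level on all 8 arrays: SLC2A4RG differed by -0.10 ± 0.31, SLC9A3R1 by -0.18 ± 0.35 and SLC9A3R2 by 0.08 ± 0.41.

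SLC genes had a somewhat larger spread from sample to sample than named genes as a whole. The pooled SD within a breed had a median of 0.53 log2 units over the 94 genes and 0.45 over the 6006 named genes. A range of at least 3 units over the 8 arrays was found in 12.8% of SLC genes and 10.1% of named genes, and a range under 1 unit in 17% and 30.3%. The 12 SLC genes of wide range included 3 that were above the no-target level on every array, SLC2A5, SLC36A2 and SLC25A1. These shares are descriptions with no test. A narrow range was seen for the probe set used for SLC38A9, a lysosomal sensor and carrier of arginine, which read 9.67 to 10.20 over all arrays. A further probe set of SLC38A9 read 6.28 to 9.27.

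The extreme values were shared unequally by the arrays. KNP 1 held the highest value of 26 of the 94 genes and YS 4 of 25, together 54.3%, against 40.5% of all named genes. These same 2 arrays held the lowest value of 18 genes together, 19.1%, against 36.8% of all named genes. KNP 1 and YS 4 are also 2 of the 3 arrays with the widest 3′ to 5′ gap, and they had the highest median signal, 224 and 263 against 158 to 174 on the others. The median of their no-target controls was 23.4 and 26.9 in signal, against 5.54 to 12.1. Whether the gap or these levels have a part in the extremes was not tested.

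Without KNP 1, KNP 2 and YS 4, which left 2 KNP and 3 YS arrays, 3 genes had an unadjusted p under 0.05 (3.19%, against 8.42% of all probe sets), and 0 passed the adjustment. SLC3A2 differed by -1.18 ± 0.29 (unadjusted p = 0.00646, adjusted p = 0.470), with KNP 3 and KNP 4 at 7.05 and 7.59 and the 3 YS arrays at 8.31 to 8.68. SLC25A1 differed by -1.96 ± 0.62 (unadjusted p = 0.0196, adjusted p = 0.513). SLC2A5 differed by -2.56 ± 0.86 (unadjusted p = 0.026, adjusted p = 0.537).

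All 3 of these genes had their lower mean in KNP, on all 8 arrays as well as on the 5. Groups without overlap, 0 on all 8 arrays, were found for 21 genes on the 5 arrays, 22.3% against 26.9% of all probe sets, so the SLC share was not above that of the array as a whole. Of the 94 differences, 77 kept their sign without the 3 arrays and 17 turned. With the 3′ to 5′ gap as a covariate on all 8 arrays, SLC3A2 alone had an unadjusted p under 0.05 (1.06% of the 94 genes, against 4.87% of all probe sets), with a difference of -1.01 ± 0.28 (unadjusted p = 0.00689, adjusted p = 0.960).

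**Figure D4:**
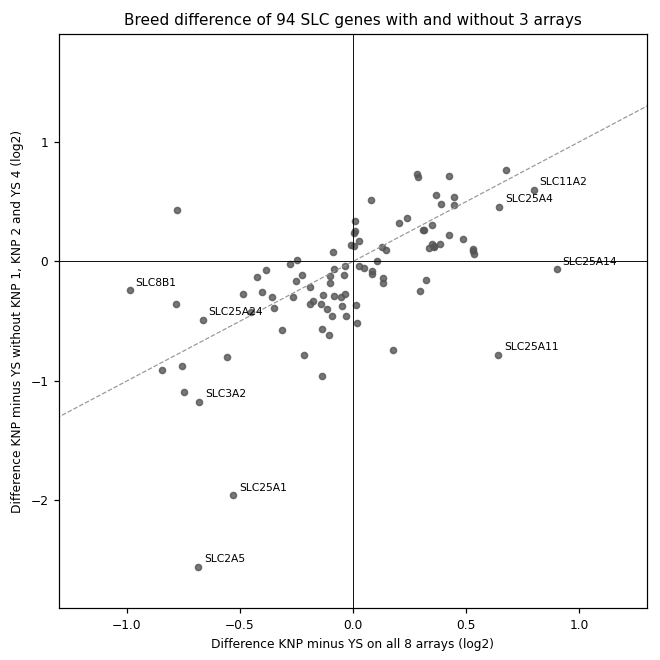
Difference KNP minus YS (log2) of the 94 tested SLC genes on all 8 arrays (horizontal axis) against the same difference without KNP 1, KNP 2 and YS 4 (vertical axis): each point is a gene. SLC2A5 moves furthest down, to -2.56, SLC25A1 lies at -1.96, and SLC25A11 changes sign, to -0.78.

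Different probe sets of a gene did not always give the same sign. Of the 27 genes with more than 1 tested probe set, 14 held differences of both signs: SLC11A2, SLC25A14, SLC31A1, SLC33A1, SLC35C2, SLC35F5, SLC37A4, SLC38A1, SLC39A5, SLC3A1, SLC41A1, SLC44A2, SLC7A7 and SLC9A5. The same share over all named genes is not given here, so this count is a description only. Of all 126 tested SLC probe sets, 1 separated the breeds without overlap, against 1.96% of all probe sets, so the SLC share was not above the background. It belongs to SLC33A1. This probe set read 7.76, 7.05, 7.98 and 7.99 in KNP and 9.03, 8.18, 8.49 and 8.61 in YS, a difference of -0.88 ± 0.31 (unadjusted p = 0.0184, adjusted p = 0.9998).

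That probe set is not the one of highest mean, which gave 0.31 ± 0.35 for SLC33A1. Which transcripts each of the probe sets reads was not analysed here. For SLC39A5, a zinc carrier, the probe set of highest mean gave -0.19 ± 0.42 and the other 0.55 ± 0.30, and for SLC25A14 the pair gave 0.90 ± 0.64 and -0.58 ± 0.48.

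Other membrane transport genes gave a like picture. Of 11 ABC transporters, which pump substrates with ATP, 9 were tested, 3 with the higher mean in KNP and 6 in YS. ABCB1, a drug efflux pump, read 7.33, 7.73, 7.66 and 7.07 in KNP and 8.01, 8.25, 7.96 and 8.05 in YS, a difference of -0.62 ± 0.24 (unadjusted p = 0.0317, adjusted p = 0.9998), and was the only gene of these lists without overlap, against 1.96% of all probe sets. The ion-pumping P-type ATPases had 6 of 14 tested genes with the higher mean in KNP, the vacuolar proton pump 6 of 14, the water and glycerol channels (aquaporins) 2 of 4, and the SLCO organic anion carriers 1 of 2. In 0 genes of these 5 lists was the adjusted p under 0.05, and ABCB1 was the 1 gene with an unadjusted p under 0.05, against 2.84% of all probe sets.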

How the data were processed

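The authors deposited 1 intensity per probe set and array (24123 probe sets, 8 arrays) on a linear scale; as read from the values, all 8 arrays had been scaled to a mean of 500 with the outer 2% on either side trimmed off. RNA was labelled with biotin by the array maker's protocol, per the labels' protocols, with the summarising algorithm not given in the sources used here. Array values carry no counts, and the 4 arrays per breed limit the precision.

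Values were taken as log2(signal + 16) without further scaling. Control probe sets (124) were left out, and of the other 23999 the 25% with the lowest mean, which left 17999. Breeds were compared with limma 3.58.1 (R 4.3.3, statmod 1.5.0; lmFit and eBayes, two-sided, Benjamini-Hochberg over all 17999, threshold 0.05). Tables and figures were made with Python 3.11.15, pandas 2.3.3 and matplotlib 3.10.9. Gene symbols came from the platform annotation, which can be old: 10069 probe sets had 1 symbol, 198 several and 13732 none, and 113 of the 114 SLC genes matched RefSeq (Sscrofa11.1) by Entrez identifier, with 0 symbols changed. A further 5 probe sets naming an SLC gene among several symbols were not used. Roles were assigned by SLC family number, so single members may carry something else or act in another organelle.

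The genes and lists were chosen with earlier results of these data known. Genes were named by a rule: the 2 of smallest p in each role, genes without overlap or at least 1 log2 unit apart, genes with 1 array at least 2 units from the rest, a list of carriers known in fat or other tissues, and genes whose probe sets differed in sign. SLC1A2, SLC2A5, SLC2A12, SLC6A8, SLC22A2, SLC22A3, SLC22A6, SLC22A8, SLC25A33, SLC25A37, SLC25A51, SLC26A11, SLC36A2, SLC38A9, SLC44A4, SLC46A2, SLC52A2, SLC5A5 and SLC9A3R2 were added after their values were seen. On simulated data with these means and spreads 50 probe sets of each size were changed among 17999: the share recovered was 4% at 2-fold, 58% at 4-fold, 84% at 8-fold and 86% at 16-fold, beside 4 false calls. The simulated noise was independent between probe sets and arrays, whereas real deviations were correlated, at 0.40 for KNP 1 and YS 4. With no change simulated, 5.27% of probe sets had an unadjusted p under 0.05 in limma, against 2.84% in these data. The recovered shares hold for that setting only. Alternatives covered the filter, normalization, pseudocount, variance model, array weights, replicate block, 3′ to 5′ covariate, choice of probe set, and leaving out arrays.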

Additional observations from a re-analysis of the deposited data

Results flagged for a closer look

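In 86 breed groups of 4 arrays, 10 held 1 array whose gap to its nearest neighbour exceeded Dixon's 95% critical value, as a share of the group's range. Chance flags about 1 in 20 such groups, but the count is not read against that share, since SLC28A1 and SLC25A14 were among the genes because 1 array lay far from the rest. YS 4 was the lowest YS array for the glutamine carrier SLC1A5 (10.82), the regulator SLC2A4RG (9.69), the ADP/ATP carrier SLC25A5 (9.93) and the oxoglutarate-malate carrier SLC25A11 (6.55). It was the highest YS array for the nucleoside carrier SLC28A1 (8.40), SLC35F5 (9.91) and the zinc carrier SLC39A2 (9.03). KNP 1 was the highest KNP array for the peptide carrier SLC15A2 (7.98), KNP 4 the highest for SLC25A24 (10.78), and YS 1 the lowest YS array for the carnitine carrier SLC22A5 (7.63).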

How the results depend on the processing

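No SLC gene passed an adjusted p of 0.05 in limma under any alternative run; the smallest was 0.470, without KNP 1, KNP 2 and YS 4. The count at an unadjusted p under 0.05, which was 0, became 1 with no filter, 2 with the lowest 50% left out, 1 after quantile normalization, 2 with a trended robust variance, 1 with the 3′ to 5′ covariate, 3 without those 3 arrays, and 0 to 3 when 1 array was left out. The share of all probe sets was 3.06%, 3.1%, 3.22%, 2.63%, 4.87%, 8.42% and 2.35% to 4.91% in the same order, and the SLC share was 0.877%, 2.9%, 1.06%, 2.13%, 1.06%, 3.19% and 0% to 3.19%. With the replicate number as a block it was 1 (SLC8B1, 1.06%, against 2.83% of all probe sets). Same-numbered arrays had correlations of -0.17, 0.02, 0.13 and -0.19 in their deviations, and pairs of different number -0.27 to 0.40. These values cannot show whether same-numbered samples were handled together, and the labels name no pairing. The count of genes without overlap, which was 0, became 21 without the 3 arrays (22.3%, against 26.9% of all probe sets) and 0 to 6 when 1 array was left out (0% to 6.38%, against 3.39% to 6.33%). The number of genes above the no-target level on all 8 arrays ran from 51 (mean of the probe sets of a gene) to 72 (the median of the controls plus 3 median absolute deviations as the limit). In all, 37 of 94 differences kept their sign throughout and 57 did not, 17 of them turning without the 3 arrays. Among the genes named above, the signs that turned included that of SLC15A2 with a pseudocount of 1 (0.02) and without the 3 arrays (0.08). The sign of SLC25A6 turned after quantile normalization (0.0010), and that of SLC33A1 with the mean of its probe sets (-0.22). SLC25A11 turned with array weights (-0.06) and without the 3 arrays (-0.78), and SLC25A14 without the 3 arrays (-0.07). SLC29A1 turned with the 3′ to 5′ covariate (-0.13) and without the 3 arrays (-0.74). Leaving out 1 array turned signs among the named genes as well, with differences from -0.32 to 0.04 for SLC1A5, -0.29 to 0.13 for SLC2A4RG, -1.69 to 0.09 for SLC2A5, -0.43 to 0.06 for SLC9A3R1, -0.71 to 0.50 for SLC15A2, -1.18 to 0.02 for SLC25A1, -0.28 to 0.08 for SLC25A3, -0.43 to 0.04 for SLC25A5, -0.26 to 0.09 for SLC25A6, -0.19 to 0.71 for SLC29A1, -1.32 to 0.02 for SLC36A2, -0.27 to 0.11 for SLC37A4 and -0.43 to 0.12 for SLC39A14. The cause of these turns was not tested. Genes near the no-target level give differences that understate or blur a change, and 4 arrays a breed limit the rest.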
